A study of Mus musculus with 12 samples.

Results

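Cells that had lost both Lin28 paralogs were set against cells that had lost Lin28a alone, so the comparison asks what changed when Lin28b was missing too in cells already without Lin28a. The double-loss group carries the phenotype lin28a and b loss of function, and the group it is set against carries lin28a loss of function. Each group has 3 samples, and each sample was hybridised to 1 array of an Illumina mouse WG-6 BeadChip, which reads RNA as the brightness of beads that carry gene-specific probes. The members are all genes with a detection p under 0.01 on all 3 arrays of either group. Of 30854 entries deposited, 10030 passed, and 9570 genes were tested after 460 dimmer entries of a repeated symbol were left out. Both remaining groups of the series, lin28b loss of function and wild type with 3 arrays each, were used for a second comparison across the same pair of chips.

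The labels call all 12 samples mouse embryonic stem cells, while the series design speaks of wild type iPS cells for the controls. All groups shared KnockOut DMEM with 15% FBS, non-essential amino acids, 2-mercaptoethanol and 1000 U/ml mLif. The sample titles give 1 line name per genotype and do not say that replicates came from separate cultures, so p-values measure only the spread between these samples. Double loss and Lin28b loss lie on 1 chip, and Lin28a loss and wild type lie on the other. In the main comparison the genotypes cannot be told apart from the chips or the lines.

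Lin28a and Lin28b are RNA-binding proteins that are abundant in pluripotent and other immature cells. They bind precursors of the microRNA let-7 and recruit enzymes that add uridines to them or keep them from being processed, which blocks mature let-7. Mature let-7 in turn lowers mRNAs that carry matches to its seed, Lin28a and Lin28b among them. Lin28 proteins also bind many mRNAs directly. The array does not read mature microRNAs. The let-7 sequences are shown because let-7 recognises its targets through the seed. The 9 mature let-7 and miR-98 forms in RefSeq (GRCm38.p6) share 1 seed, bases 2 to 8, here in capitals. The list of reported let-7 targets below was not searched for matches to it.
let-7a-5p: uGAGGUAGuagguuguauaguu
let-7d-5p: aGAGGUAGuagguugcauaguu
let-7g-5p: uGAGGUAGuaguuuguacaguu
miR-98-5p: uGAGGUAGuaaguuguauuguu
These lie at chr13:48538239-48538260 (minus strand), chr13:48536078-48536099 (minus), chr9:106178846-106178867 (plus) and chrX:151913229-151913250 (plus). The hairpin of let-7g is given as well, since its loop side holds the letters GGAG, the motif that Lin28 is known to bind, in capitals.
let-7g hairpin: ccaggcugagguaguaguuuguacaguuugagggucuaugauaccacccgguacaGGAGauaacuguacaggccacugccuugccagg
It spans chr9:106178840-106178927 on the plus strand and is 88 bases long.

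Mean raw signal per array lay between 325.4 and 476.5 in double loss and between 401.0 and 542.7 in Lin28a loss, and 9393 to 10319 against 10187 to 10773 genes were detected. The brightest arrays of these groups, double loss 1 and Lin28a loss 3, deviated from their groups in a common way (r = 0.687 across genes, which are not independent replicates). In each group 18 of 20 general pluripotency markers were detected on all 3 arrays. Only Dppa2 and Foxd3 were undetected on all 6. Lin28a was detected but dim in both groups, and its normalized log2 intensities of 5.29, 5.55 and 5.60 in double loss and 5.69, 5.71 and 5.57 in Lin28a loss overlapped (difference -0.18 ± 0.11, SE, adjusted p = 0.2084). Lin28b has 2 entries in the table, and neither was detected on any of the 12 arrays, so the loss of Lin28b could not be checked. The Y-linked gene Eif2s3y, a translation initiation factor subunit, had log2 intensities of 6.11, 5.92 and 6.27 in double loss and was detected on no array of Lin28a loss (4.63, 4.54 and 4.48). The other Y-linked genes in the table, Ddx3y, Kdm5d and Uty, and Xist were detected on no array. Ddx3y, read by 3 probes, had raw signals of 153.6 to 239.0 in double loss and 126.3 to 218.7 in Lin28a loss. Its missed detection thus does not show that it was absent.

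A gene is said here to have risen or fallen in double loss where its adjusted p was under 0.05 (limma on all 12 arrays, Benjamini-Hochberg over the 9570 genes). By that rule 5240 genes differed, 54.8% of those tested. Of these 2540 rose (26.5%) and 2700 fell (28.2%). With median scaling in place of quantile normalization 797 rose and 2373 fell, about a median over all genes of -0.16, and of the probes the authors had normalized themselves 7762 rose and 4064 fell, about a median of 0.14. Split and total thus depend on the scaling. A change of at least 2-fold was seen for 1083 genes (11.3%), 439 risen genes (4.59%) and 644 fallen genes (6.73%), and of at least 4-fold for 47 and 91. The 3 double-loss arrays did not overlap the 3 Lin28a-loss arrays at 5546 genes (58.0%), standing above them at 2688 (28.1%) and below them at 2858 (29.9%). At an unadjusted p under 0.05 the count of changed genes was 5720.

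The filter itself shapes these counts. Of the genes tested 8130 were detected on all 6 arrays. Another 409 passed through the double-loss arrays only and 1031 through the Lin28a-loss arrays only. Among them 119 were detected on all 3 arrays of double loss and on none of Lin28a loss, and 430 the other way round. At the edge of the rule, 55 single-probe entries had a detection p of 0.0096 in their better group, with a median signal of 95.1, and 34 had 0.0107, with a median signal of 77.7. Genes read by several probes carry a combined detection p, so for them a missed detection does not by itself place the signal at background.

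**Figure D1:**
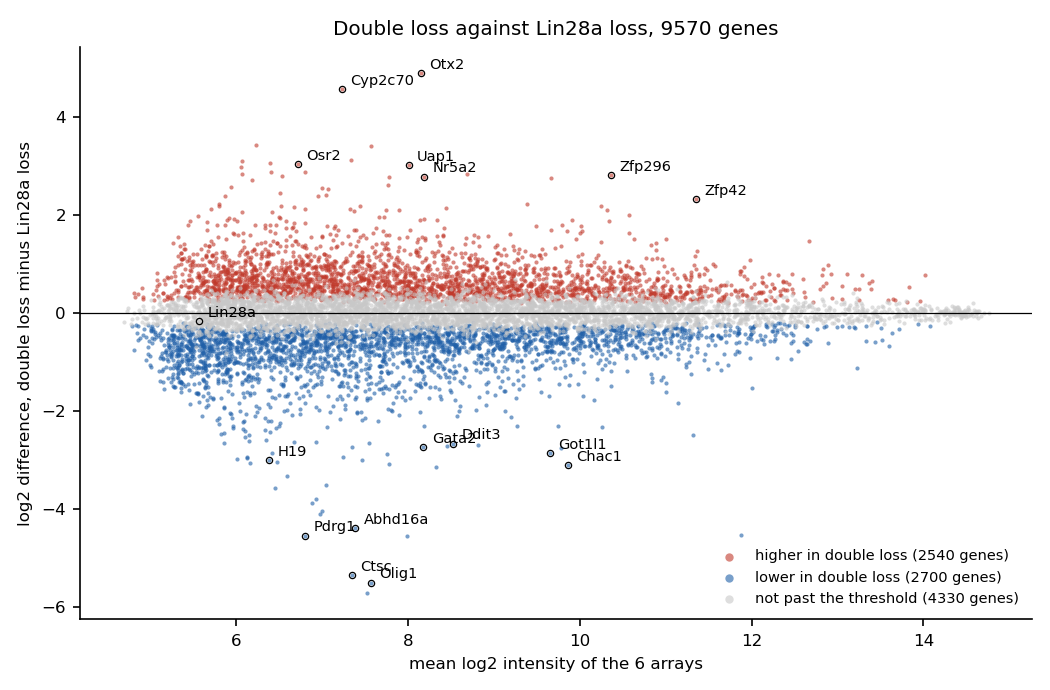
Each point is 1 of 9570 genes, with its mean log2 intensity over the 6 arrays on the x axis and the log2 difference, double loss minus Lin28a loss, on the y axis; red genes rose and blue genes fell at an adjusted p under 0.05. Otx2 and Cyp2c70 stand highest, Olig1 and Ctsc are among the lowest, and Lin28a lies close to 0.

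Otx2, a homeodomain factor active as cells leave the naive state, showed the largest rise. Its log2 intensities were 10.86, 10.38 and 10.55 in double loss, against 5.72, 5.56 and 5.83 in Lin28a loss. Every double-loss array thus stood above every Lin28a-loss array, and the difference was 4.89 ± 0.13 (SE, n = 3 each, adjusted p = 2.712e-11). In Lin28b loss Otx2 had 11.24, 11.29 and 11.21 and in wild type 8.77, 8.48 and 8.49, so Lin28a loss was the lowest of the 4 groups. Osr2, an odd-skipped zinc finger factor, had 8.30, 8.17 and 8.21 in double loss and 5.03, 5.10 and 5.48 in Lin28a loss (3.03 ± 0.12, adjusted p = 1.205e-09). Uap1, which makes UDP-N-acetylglucosamine at the end of the hexosamine pathway, had 9.92, 9.34 and 9.27 in double loss and 6.45, 6.43 and 6.61 in Lin28a loss (3.01 ± 0.17, adjusted p = 2.77e-08). In wild type Uap1 stood at 9.94, 9.39 and 9.52, so double loss and wild type overlapped and Lin28a loss stood apart.

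Several further rises were of transcription factors. Nr5a2, an orphan nuclear receptor that binds regulatory elements of Pou5f1, had 9.75, 9.53 and 9.47 in double loss and 6.53, 6.85 and 7.02 in Lin28a loss (2.78 ± 0.13, adjusted p = 4.484e-09). Zfp296, a zinc finger protein of embryonic stem cells, had 11.73, 11.75 and 11.82 against 8.51, 9.15 and 9.21 (2.81 ± 0.17). The ETS factor Spic (2.60 ± 0.14), the homeobox gene Meis2 (2.55 ± 0.16) and the helix-loop-helix factor Msc (2.76 ± 0.22) rose too. Large rises outside this class also included those of the smooth muscle actin Acta2 (2.88 ± 0.13), the secreted Wnt deacylase Notum (2.77 ± 0.22), the adenylyl cyclase Adcy2 (2.52 ± 0.19) and Pramel30 of the Prame-like family (2.45 ± 0.11). Pramel30 was detected on 1 Lin28a-loss array. The dimmest signals detected for single-probe genes on the Lin28a-loss arrays were 5.47, 5.49 and 5.31. Pramel30 (5.10 and 5.29), Acta2 (5.24 and 5.26) and Osr2 (5.03 and 5.10) had Lin28a-loss values under them. The sizes of these rises thus depend on the offset.

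Some genes were at background in Lin28a loss, and their folds are given as lower bounds: the double-loss mean against the dimmest detected signal of each Lin28a-loss array, or the gene's own signal where that was higher. Cyp2c70, a mouse cytochrome P450 known from bile acid hydroxylation, had 9.52, 9.53 and 9.47 in double loss and 4.89, 4.76 and 5.18 in Lin28a loss. It was at least 17.0-fold higher in double loss (adjusted p = 8.178e-11), and it was low in Lin28b loss and wild type as well, between 5.49 and 6.02. The spalt-family factor Sall3, read by 2 probes, was detected on no Lin28a-loss array, but its signals there (5.73, 5.78 and 6.08) stood above that floor. Its 10.5-fold rise is thus the fitted difference and no lower bound. The Rac exchange factor Tiam2 was at least 5.69-fold higher, Pramel14 at least 5.66-fold and the class I histocompatibility gene H2-Q6 at least 5.32-fold. The protease inhibitor gene Spink10 and the zinc finger genes Zfp936 and Zfp607b had bounds of 4.55-, 4.30- and 4.16-fold.

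**Figure D2:**
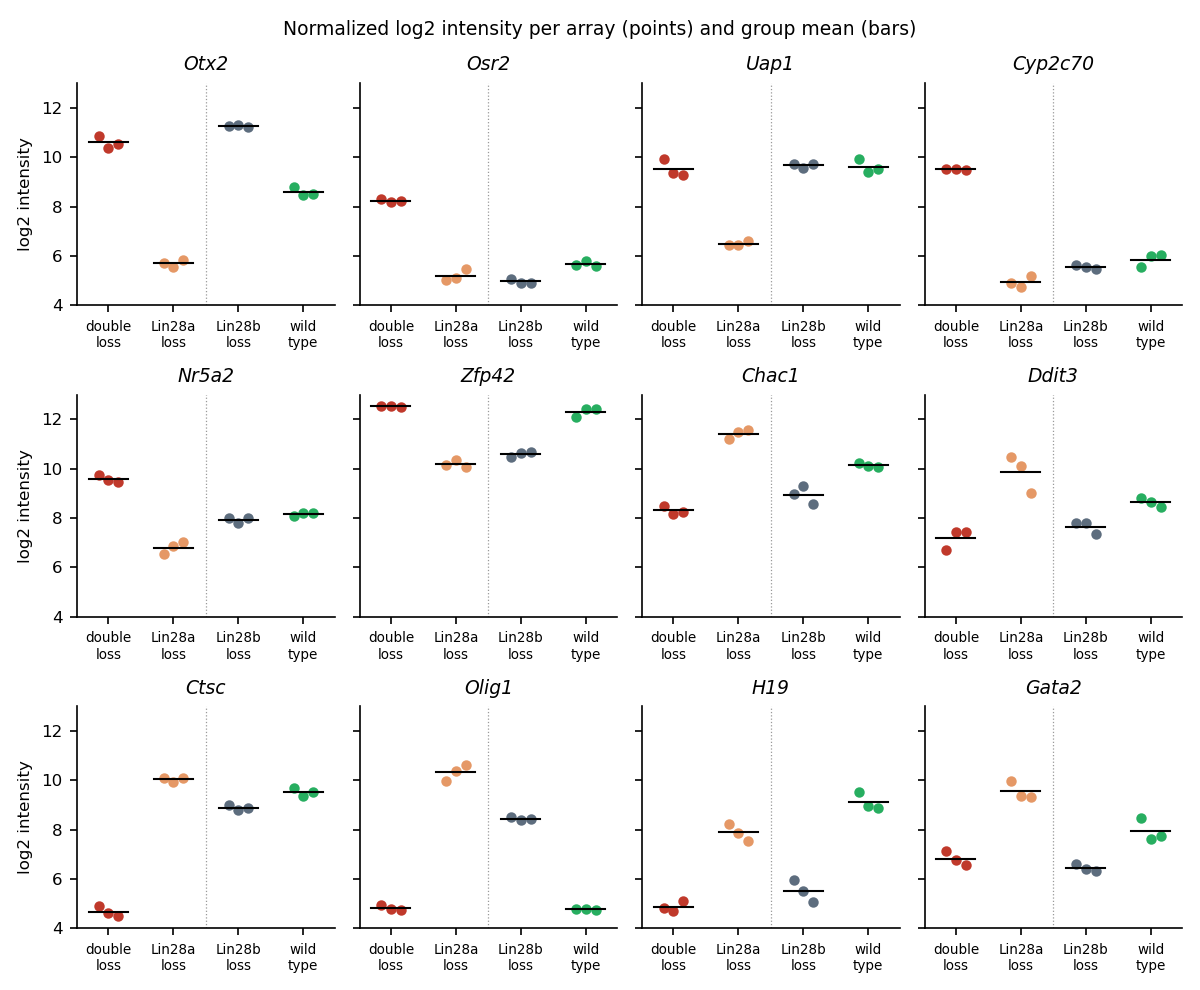
Normalized log2 intensity of 12 genes on each array (points) with the mean of each group (bars), double loss and Lin28a loss left of the dotted line, Lin28b loss and wild type right of it. For Otx2, Osr2, Cyp2c70 and Nr5a2 the double-loss arrays stand above the Lin28a-loss arrays, and for Chac1, Ddit3, Ctsc, Olig1, H19 and Gata2 below them.

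Among genes that fell was Ctsc, the lysosomal protease cathepsin C on chromosome 7. It had 4.89, 4.60 and 4.52 in double loss, with 1 array detected, and 10.07, 9.93 and 10.08 in Lin28a loss. All 3 double-loss values lay under the dimmest signals detected for single-probe genes, so the fitted difference of -5.36 ± 0.12 (adjusted p = 7.539e-12) depends on the offset, and against that floor Ctsc was at least 21-fold lower. Lin28b loss and wild type stood near Lin28a loss, between 8.79 and 9.68. Snai3, a snail-family repressor (-3.09 ± 0.24), Twistnb, an RNA polymerase I subunit (-3.04 ± 0.17), and Ikbip (-3.01 ± 0.19) followed. Ikbip was detected on 2 double-loss arrays, with 1 value under that floor, and was at least 7.69-fold lower against it. Twistnb was raised in Lin28a loss alone, at 7.69, 7.85 and 8.45, against 5.08, 4.82 and 4.95 in double loss and 4.73 to 5.14 in the other groups, and it was at least 5.14-fold lower in double loss against the same floor. The endothelial diaphragm gene Plvap (-2.94 ± 0.13), Got1l1 (-2.87 ± 0.16), the X-linked gene Xlr4a (-2.76 ± 0.12) and Nod1, a sensor of bacterial peptides (-2.74 ± 0.13), were among the next largest, together with genes described under their groups below. Plvap was detected on 2 double-loss arrays. Its value on double loss 2 (5.73) lay under the floor of that array (5.78), so the size of its fall depends on the offset.

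Other genes were detected on all 3 arrays of Lin28a loss and on none of double loss. Olig1, a transcription factor of oligodendrocyte precursors, had 4.93, 4.77 and 4.74 in double loss and 9.96, 10.37 and 10.62 in Lin28a loss, which is at least 25.7-fold lower in double loss (adjusted p = 2.2e-11). Pdrg1, a small prefoldin-like gene, had 4.57, 4.50 and 4.51 in double loss and 9.13, 9.17 and 8.93 in Lin28a loss, and was at 4.47 to 4.51 in both groups that keep Lin28a. The bounds were 15.5-fold lower for the lipase gene Abhd16a, 10.5-fold for the histocompatibility gene H2-Bl, 10.4-fold for Cmss1, 9.17-fold for the clathrin assembly gene Picalm, 9.11-fold for Wdr46, which acts in ribosomal RNA processing, and 9.03-fold for the oocyte homeobox gene Obox6. Picalm lies near Ctsc on chromosome 7. Of 13 genes tested between 85 and 93 Mb there, Ctsc and Picalm changed at least 4-fold (15.4%, against 1.44% of all genes). The window was chosen around these 2 genes after their values were seen, so the share is no separate result. The median difference of the 13 was -0.02.

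Most genes of the integrated stress response stood lower in double loss. In this pathway, kinases that sense amino acid shortage, misfolded protein and other stress slow translation, which raises the factor Atf4, and Atf4 turns on genes of amino acid supply and, with Ddit3, of cell death. Of 25 members tested 3 rose and 20 fell, against 26.5% and 28.2% of all genes tested, shares that stand behind each list count. Their median difference was -0.85, against -0.01 over all genes. Under median scaling 2 rose and 17 fell, and without the members on chromosome 8, 3 rose and 17 fell of 22.

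Chac1, which degrades glutathione, had log2 intensities of 8.51, 8.17 and 8.24 in double loss and 11.18, 11.47 and 11.58 in Lin28a loss (-3.11 ± 0.17, adjusted p = 2.137e-08). Ddit3, the factor also called CHOP, had 6.71, 7.42 and 7.44 in double loss and 10.47, 10.11 and 9.0 in Lin28a loss, and its lowest Lin28a-loss array was the brightest array of that group (-2.67 ± 0.31, adjusted p = 1.371e-05). Nupr1, a stress-induced chromatin protein, had 10.01, 9.99 and 10.20 in double loss and 12.72, 12.63 and 12.35 in Lin28a loss (-2.50 ± 0.16, adjusted p = 7.701e-08). In all 3 genes every double-loss array lay below every Lin28a-loss array. The mTOR inhibitor Ddit4 (-2.33), the serine enzyme Psat1 (-1.53), the secreted glycoprotein Stc2 (-1.34), the pseudokinase Trib3 (-1.22) and the amino acid transporter chain Slc3a2 (-1.18) fell as well. Asparagine synthetase, Asns, fell by only 0.26.

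Atf4 itself did not pass the test, with 11.86, 11.92 and 11.96 in double loss and 11.88, 12.06 and 11.99 in Lin28a loss (-0.06 ± 0.09, adjusted p = 0.6041). The members that rose were Ppp1r15a, which ends the response by restoring eIF2 (1.16 ± 0.09, 9.05, 8.96 and 8.94 in double loss against 7.67, 7.90 and 7.91 in Lin28a loss), the arginine transporter Slc7a3 (0.77 ± 0.13) and Sesn2 (0.64 ± 0.10), a leucine sensor that did not pass under median scaling. In the comparison of Lin28b loss with wild type 2 of the same 25 rose and 14 fell, with a median of -0.48, against 18.2% and 17.5% of all genes.

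The promoters of these genes were searched for the letters TGATGNAA, the composite element that Atf4 binds with C/EBP partners, on either strand from 250 bases before to 50 bases after the RefSeq start (GRCm38.p6). Among the 22 members with a promoter there, 7 held it in at least 1 promoter (31.8%), against 4.51% of all 27025 genes and 3.97% of 32851 promoters. The list was compiled from genes known to lie in the Atf4 pathway, so its share is a description and no evidence about these samples. They were Chac1, Nupr1, Trib3, Atf3, Herpud1, Aars and Asns. Their median difference was -0.78, and that of the members without it was -0.95. A match describes the letters and does not show binding. The match reads TTGCATCA on the gene's strand in Chac1, Nupr1, Atf3, Herpud1 and Aars. The first 3 are shown with the match in capitals and 50 bases on either side.
Chac1: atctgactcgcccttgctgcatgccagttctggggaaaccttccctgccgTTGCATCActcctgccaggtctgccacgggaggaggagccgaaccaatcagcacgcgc
Nupr1: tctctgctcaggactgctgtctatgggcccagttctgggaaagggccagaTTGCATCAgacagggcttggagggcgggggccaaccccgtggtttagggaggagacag
Atf3: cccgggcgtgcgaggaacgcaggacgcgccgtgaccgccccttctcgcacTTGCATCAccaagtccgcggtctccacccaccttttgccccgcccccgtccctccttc
The windows are chr2:119350999-119351106 (plus strand) for Chac1, chr7:126625523-126625630 (minus) for Nupr1 and chr1:191183386-191183493 (minus) for Atf3. The match begins 193 bases before the start site in Chac1 and 110 bases before it in both Nupr1 and Atf3. Atf3, a stress-induced repressor, fell by 0.78.

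Genes that make serine and glycine and carry one-carbon units overlap that list. Of 17 tested 3 rose and 8 fell, with a median of -0.07. Psat1 and Phgdh, which make serine, had differences of -1.53 and -0.99, the mitochondrial folate enzymes Mthfd2 and Aldh1l2 -1.10 and -1.63, and Ahcy, which clears S-adenosylhomocysteine, -1.68 ± 0.12. Mat2a, which makes S-adenosylmethionine, rose by 1.28 ± 0.15, with 11.53, 11.60 and 11.46 in double loss and 9.90, 10.35 and 10.51 in Lin28a loss. Of 28 aminoacyl-tRNA synthetases, which load tRNAs with amino acids, 4 rose and 12 fell, with a median of -0.18. Under median scaling 1 rose and 6 fell, and without double loss 3 there were 2 and 8. The largest falls among them were of Lars2, Sars and Nars, at -0.95, -0.76 and -0.72, and Nars did not pass under median scaling or without any of 3 single arrays (Lin28a loss 3, double loss 2 or double loss 3).

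**Figure D3:**
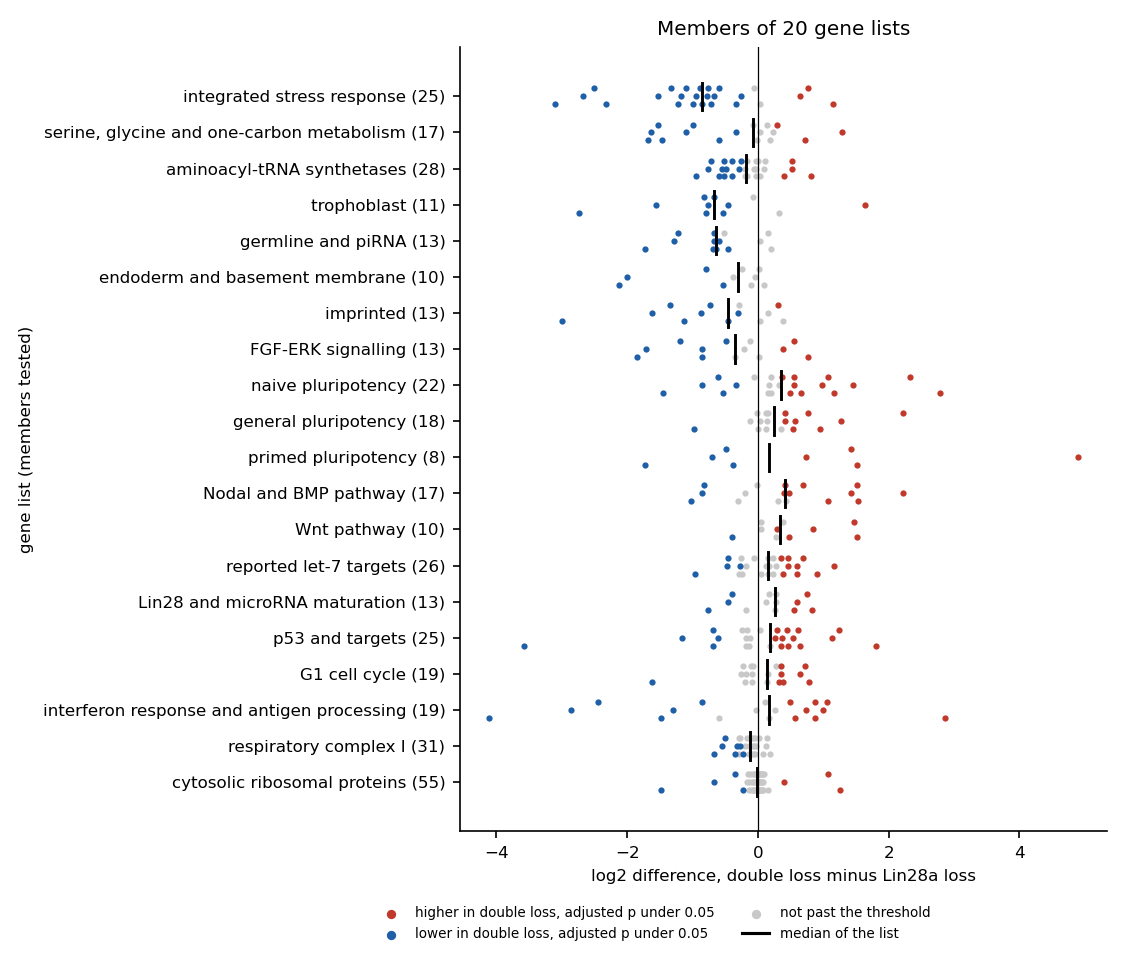
Log2 difference, double loss minus Lin28a loss, of each tested member of 20 gene lists (points, red where risen, blue where fallen, grey where not past the threshold), with the median of each list (bars). The integrated stress response, trophoblast and germline lists have medians of -0.85, -0.67 and -0.65, the Nodal and BMP list one of 0.42, and the cytosolic ribosomal proteins one of -0.01.

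The pluripotency lists moved in mixed ways. Pou5f1, the factor also called Oct4, had 12.63, 12.55 and 12.61 in double loss and 12.59, 12.66 and 12.43 in Lin28a loss, and the groups overlapped (0.04 ± 0.10, adjusted p = 0.7736). Nanog (0.33 ± 0.27, adjusted p = 0.3313) and Esrrb (0.20, adjusted p = 0.1005) did not pass the test. Of 22 tested members of the naive list 11 rose and 5 fell, with a median of 0.35, and under median scaling 6 rose and 3 fell. Zfp42, the marker also called Rex1, had 12.54, 12.54 and 12.48 in double loss and 10.15, 10.37 and 10.07 in Lin28a loss (2.32 ± 0.11, adjusted p = 8.396e-09). With Nr5a2 it led the list. The germ cell and naive-state factor Prdm14 rose by 1.46 ± 0.17, the adhesion gene Jam2 by 1.07 and Dppa3, which protects DNA methylation marks in early embryos, by 0.98 ± 0.14. Against them, the homeobox gene Gbx2 fell by 1.45 ± 0.18, the Lif feedback inhibitor Socs3 by 0.85 ± 0.10 and Klf4 by 0.54.

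Of 18 general pluripotency genes 8 rose and 1 fell, with a median of 0.25, and under median scaling 3 rose and 1 fell. Lefty1, a Nodal antagonist, led with 10.44, 10.53 and 10.51 in double loss and 7.79, 8.28 and 8.77 in Lin28a loss (2.22 ± 0.21, adjusted p = 2.21e-06). The RNA-binding protein L1td1 rose by 0.94 ± 0.15 and Sox2 by 0.53. The splicing factor Esrp1 was the member that fell (-0.98 ± 0.15). Of 8 primed pluripotency genes 4 rose, Otx2, Nodal, Lefty2 and Zic2, and 4 fell, Pou3f1, Dnmt3b, Fgf15 and Cldn6. Pou3f1, the factor also called Oct6, was not detected on any double-loss array (5.05, 5.03 and 4.80, against 6.89, 6.72 and 6.45 in Lin28a loss, at least 2.08-fold lower). The fall of Fgf15 (-0.49) was lost without double loss 1, double loss 2 or Lin28a loss 3. Of the 4 falls 3 were left without Lin28a loss 1, Lin28a loss 2 or double loss 3 and under median scaling, and 2 without double loss 1. The 4 rises kept their calls in these fits.

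Of 17 genes of the Nodal and BMP pathway 9 rose and 3 fell, with a median of 0.42, and under median scaling 5 rose and 4 fell. The ligand Nodal, which keeps its own expression going through Smad2 and Smad3, had 11.40, 11.31 and 11.46 in double loss and 9.67, 10.01 and 9.94 in Lin28a loss (1.51 ± 0.11, adjusted p = 3.6e-07). The ligand Bmp4 rose by 1.54 ± 0.10, Lefty2 by 1.42 ± 0.19 and the convertase Pcsk6, which cleaves Nodal precursors, by 1.07. Among signal transducers Smad2 rose (0.69) while Smad3 (-0.86 ± 0.09) and Smad1 (-1.02 ± 0.09) fell. Of the Id genes, known targets of BMP signals, Id2 fell (-0.82 ± 0.14), and Id1 (-0.31) and Id3 (0.44) did not pass the test.

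In the Wnt pathway 5 of 10 tested genes rose and 1 fell, and without Lin28a loss 3 as well as under median scaling 3 rose and none fell. Axin2, a negative feedback target of β-catenin, had 9.71, 9.29 and 9.28 in double loss and 7.77, 7.76 and 8.20 in Lin28a loss (1.52 ± 0.14, adjusted p = 2.41e-06). The target Sp5 (1.46 ± 0.26) and the repressor Tcf7l1 (0.84 ± 0.09) rose too. In Lin28b loss against wild type Axin2 and Sp5 differed the other way, by -1.13 and -2.12, and the interaction test was passed by both (2.65, adjusted p = 1.001e-06, and 3.58, adjusted p = 1.36e-05). Among 13 genes of FGF-ERK signalling 3 rose and 6 fell, with a median of -0.34. Under median scaling 1 rose and 6 fell, but of the genes detected on all 12 arrays 3 rose and 1 fell. The ETS factor Etv4 had 6.96, 6.63 and 7.11 in double loss and 8.75, 8.71 and 8.77 in Lin28a loss (-1.85 ± 0.12, adjusted p = 6.837e-08). The feedback phosphatases Dusp4 and Dusp6 fell by 1.71 and 0.86, the inhibitor Spry4 by 0.86 and the immediate early gene Fos by 1.20. The related ETS factor Etv5 rose by 0.77 ± 0.10, and the kinase gene Mapk3 (-0.13) did not pass the test.

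Of 43 reported let-7 targets 26 were tested, 9 rose and 4 fell, with a median of 0.16. Under median scaling 2 rose and 3 fell, so the list has no settled direction. The largest rises were of Fndc3b (1.17 ± 0.19), a call lost under median scaling, of the zinc finger factor Plagl2 (0.91 ± 0.11) and of the mRNA-binding proteins Igf2bp1 (0.69 ± 0.16) and Igf2bp3 (0.60). Plagl2 had 9.80, 9.79 and 9.88 in double loss and 8.72, 8.86 and 9.16 in Lin28a loss. The insulin receptor gene Insr fell (-0.96 ± 0.12), with 7.41, 7.07 and 7.18 in double loss and 8.30, 7.99 and 8.26 in Lin28a loss, and it lies on chromosome 8. Nras (0.04) and Igf1r (-0.06) did not pass the test.

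The machinery that makes or trims microRNAs moved by less than 1 on the log2 scale at each of 13 genes tested, of which 4 rose and 3 fell. Under median scaling 1 rose and 2 fell. The Dicer partner Tarbp2 rose by 0.83 ± 0.12, with 8.69, 8.97 and 8.99 in double loss and 8.04, 8.16 and 7.95 in Lin28a loss. Dgcr8, the partner of Drosha, rose by 0.75 ± 0.19 and Trim71, itself a let-7 target and an RNA-binding ubiquitin ligase, by 0.59 ± 0.10, calls that were lost under median scaling. The other Dicer partner, Prkra, fell by 0.76 ± 0.13. Tut7, which uridylates let-7 precursors with Lin28, fell by 0.39 ± 0.13, and the nuclease Dis3l2, which degrades the uridylated precursors, by 0.46 ± 0.11. Without Lin28a loss 1, Lin28a loss 2 or double loss 1 Tut7 did not pass, and under median scaling Dis3l2 did not. Dicer1 (0.13) and Drosha (0.25) did not pass the test.

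Imprinted genes, expressed from 1 parental copy, mostly stood lower in double loss. Of 13 tested 1 rose and 8 fell, against 26.5% and 28.2% of all genes, with a median of -0.46. Of the 10 detected on all 12 arrays none rose and 6 fell. The noncoding RNA H19 had 4.84, 4.69 and 5.11 in double loss, 1 array of them detected, and 8.23, 7.87 and 7.54 in Lin28a loss (-3.00 ± 0.24, adjusted p = 5.109e-07), and was at least 4.75-fold lower against the floor of detected signals. Its neighbour Igf2, a growth factor gene, fell by 1.13. The cell cycle inhibitor Cdkn1c had 7.79, 8.16 and 8.41 in double loss and 10.02, 9.82 and 9.36 in Lin28a loss (-1.61 ± 0.18), and the growth-restraining placental gene Phlda2 fell by 1.35 ± 0.16. All 4 lie on chromosome 7. Meg3 (0.15) and Mest (0.04) did not pass the test. The member that rose was Gnas (0.31 ± 0.10), which reads 8 probes, and its call was lost under median scaling and without Lin28a loss 3 or double loss 3.

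Among 15 genes of DNA methylation 6 rose and 3 fell, and among 18 Polycomb genes 6 rose and 3 fell. Calls in either direction were thus 9 of 15 and 9 of 18, near the 54.8% of all genes. Under median scaling these splits were 3 and 3, and 1 and 3. The de novo methyltransferase Dnmt3b fell by 0.70 ± 0.10 and the dioxygenase Tet1 by 0.66 ± 0.11, each with no overlap between the groups. Gadd45g, a stress gene linked to demethylation, fell by 1.78 ± 0.26, with 6.65, 6.49 and 6.77 in double loss and 9.05, 8.26 and 7.92 in Lin28a loss. The methyl-CpG protein Mbd3 rose by 0.81 ± 0.15 and the Polycomb cofactor Epop by 0.89 ± 0.16.

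Many markers of other lineages were undetected in both groups. In bulk RNA fewer cells of a type and less RNA per cell cannot be told apart. Of 11 tested trophoblast genes 1 rose and 8 fell, against 26.5% and 28.2% of all genes, with a median of -0.67. Gata2, a factor of trophoblast and blood lineages, had 7.13, 6.77 and 6.54 in double loss and 9.95, 9.38 and 9.31 in Lin28a loss (-2.73 ± 0.23, adjusted p = 7.652e-07). The keratins Krt7, Krt18 and Krt8 fell by 0.77, 0.79 and 0.46, and the galectin gene Lgals3 rose by 1.64 ± 0.19. The summed raw signal of the 23 trophoblast genes in the table was 7206 to 10061 in double loss and 9864 to 14133 in Lin28a loss, ranges that overlap. Of these 10 were detected on none of the 6 arrays, the defining genes Elf5, Hand1, Gcm1, Tpbpa and Ascl2 among them.

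Germline and piRNA genes showed 9 falls and no rise among 13 tested, with a median of -0.65. Piwil2, a piRNA-binding protein, had 6.78, 6.56 and 6.62 in double loss and 8.40, 8.48 and 8.26 in Lin28a loss (-1.73 ± 0.10, adjusted p = 4.023e-08). The dipeptidase gene Dpep3 fell by 1.29 ± 0.14 and the piRNA pathway chaperone Fkbp6 by 1.23 ± 0.20. On all 3 arrays 7 of the list's 27 genes were detected in double loss and 13 in Lin28a loss, so part of the list passed the filter through Lin28a loss, where it is higher. Of the 6 members detected on all 12 arrays 3 fell and none rose, with a median of -0.30. The germ cell genes Dazl, Ddx4 and Sycp3 were detected on none of the 6.

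Of 10 tested genes of endoderm and basement membrane 4 fell and none rose, with a median of -0.31. The collagen chaperone Serpinh1 had 7.96, 8.21 and 8.22 in double loss and 10.34, 10.27 and 10.16 in Lin28a loss (-2.13 ± 0.09, adjusted p = 3.776e-09), and Amn, a membrane protein of visceral endoderm, fell by 2.00 ± 0.20. The summed signal of the 23 genes was 7460 to 11690 in double loss and 13585 to 17386 in Lin28a loss. Gata4, Sox17, Foxa2, Afp and Ttr, which define the lineage, were detected on none of the 6 arrays. Of 20 fibroblast and feeder cell markers 15 were undetected on all 6, Col1a1, Col1a2, Col3a1, Thy1 and Vim among them, and of 5 tested 3 rose and 1 fell. Acta2, Lox (at least 2.16-fold higher) and fibronectin, Fn1 (0.34), rose in double loss, and the matrix protease gene Mmp2 on chromosome 8 fell by 1.09. The call of Fn1 was lost under median scaling and without Lin28a loss 2, Lin28a loss 3, double loss 1 or any array of Lin28b loss. The part of any of these cell types in the other changes was not tested.

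Of 25 tested genes of p53 and its targets 12 rose and 5 fell, with a median of 0.18, and under median scaling 3 rose and 5 fell. Of the 19 detected on all 12 arrays 7 rose and 4 fell, with a median of -0.13. The nuclease gene Aen had 6.71, 6.80 and 6.77 in double loss and 4.83, 5.01 and 5.04 in Lin28a loss (1.80 ± 0.09, adjusted p = 6.065e-09), and the kinase gene Plk2 rose by 1.13 ± 0.14. The Lin28a-loss values of Aen lay under the dimmest signals detected for single-probe genes, so the size of its rise depends on the offset. Rprm, a G2 arrest gene, was at least 2.04-fold higher in double loss. Zfp365, which acts in replication stress, was at background in double loss and at least 6.05-fold lower, and the DNA damage sensor Ddb2 fell by 1.16 ± 0.09. Trp53 rose by 0.53, while Cdkn1a, the p21 inhibitor, did not pass the test (-0.18, adjusted p = 0.1547). Of 18 apoptosis genes 4 rose and 5 fell, the BH3-only gene Bik by -1.50 ± 0.16. Without double loss 2 there were 2 rises and 3 falls, under median scaling none and 4, and of the genes detected on all 12 arrays 4 rose and 3 fell. Of 19 genes of the G1 phase 7 rose, and Cdkn1c fell. Under median scaling none of the 7 rises was left and 2 fell.

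Genes of interferon response and antigen processing moved strongly in both directions, 8 up and 6 down of 19 tested, and 5 up and 6 down under median scaling. Of the 13 detected on all 12 arrays 6 rose and 2 fell, so most falls were of members missed on some arrays. H2-Bl had 4.71, 5.25 and 4.81 in double loss and 9.14, 9.08 and 8.87 in Lin28a loss, while H2-Q6 had 7.68, 7.94 and 7.90 in double loss and 5.07, 4.97 and 4.87 in Lin28a loss. Ubd, a ubiquitin-like modifier, was at least 4.63-fold lower and the immunoproteasome subunit Psmb9 at least 2.73-fold lower. The class I gene H2-D1 fell by 1.29 and H2-K1 rose by 1.0 ± 0.13. Probes on polymorphic histocompatibility genes may read several similar copies, so these values are uncertain. Many of these genes lie close together on chromosome 17. Between 33 and 38 Mb, a window chosen after the values were seen, 97 genes were tested, 29 rose and 26 fell, and their median was 0.06. Of these 8 changed at least 4-fold (8.25%, against 1.44% of all genes): Abhd16a, H2-Bl, H2-DMb1, H2-Q6, Myo1f, Psmb9, Ubd and Wdr46.

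A line with Lin28b loss was also compared with wild type, both of which keep Lin28a. This comparison uses none of the 6 arrays above but runs across the same pair of chips, again with 1 line per genotype. Eif2s3y was detected in Lin28b loss (7.32, 7.33 and 6.83) and not in wild type, so here too genotype, line and chip cannot be separated. By the same threshold 3408 of the 9570 genes differed (35.6%), 1738 higher (18.2%) and 1670 lower (17.5%), while median scaling gave 325 higher and 1387 lower about a median of -0.24. Of these 1676 moved the same way as in double loss against Lin28a loss (787 up, 889 down), which is 32% of the calls of double loss against Lin28a loss and 49.2% of those of Lin28b loss against wild type, and 564 moved the opposite way. Across genes the log2 differences of the 2 comparisons had a Pearson correlation of 0.296 over 9570 genes, and both can hold any difference between the chips. The interaction, the first difference minus the second, removes an additive chip effect but no difference between lines. It passed the threshold at 3641 genes, 1699 positive (17.8%) and 1942 negative (20.3%). Median scaling gave 533 positive and 871 negative, and the authors' normalized probes 3358 and 2529. Among the 1083 genes that changed at least 2-fold in double loss against Lin28a loss, 881 passed the interaction test (81.3%), against 3641 of all 9570. The interaction contains that first difference, so genes picked for a large one tend to pass, and the share is no separate result.

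**Figure D4:**
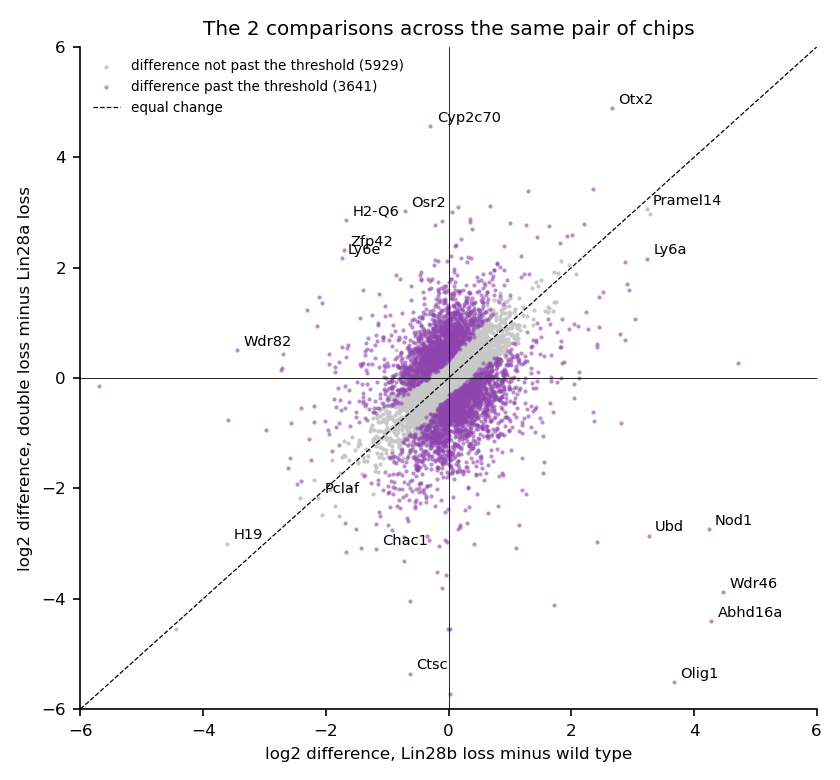
Log2 difference of Lin28b loss minus wild type (x axis) and of double loss minus Lin28a loss (y axis) for 9570 genes; purple genes passed the interaction test (3641) and grey genes did not. Pclaf lies near the line of equal change, while Olig1, Abhd16a, Wdr46, Nod1 and Ubd lie at the lower right and Zfp42, Ly6e and H2-Q6 at the upper left.

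Some large changes went the same way in both comparisons. Pclaf, a partner of the replication clamp, differed by -2.17 in double loss against Lin28a loss and by -2.13 in Lin28b loss against wild type (interaction adjusted p = 0.8691). Porcn, which lipidates Wnt proteins, differed by -2.03 and -1.93, with 1 double-loss array detected. For genes at background in 1 group of each comparison bounds hold instead, and their sizes cannot be compared. Pramel14 was at least 5.66-fold higher in double loss than in Lin28a loss and at least 5.5-fold higher in Lin28b loss than in wild type. The pseudouridine phosphatase gene Pudp was at least 2.35- and 2.53-fold lower in the 2 comparisons, and the Ras-association gene Rassf3 at least 2.79- and 2.26-fold lower. H19 was at least 4.75-fold and 10.3-fold lower, with 1 array detected in double loss and 2 in Lin28b loss. Pclaf had 6.09, 6.40 and 5.87 in double loss and 8.21, 8.26 and 8.39 in Lin28a loss, next to 6.69, 6.68 and 6.67 in Lin28b loss and 8.85, 8.85 and 8.73 in wild type. It was thus lower in both lines that had lost Lin28b, which share a chip.

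Other genes changed in 1 setting or in opposite directions. Zfp42 rose by 2.32 in double loss against Lin28a loss and differed by -1.70 in Lin28b loss against wild type (interaction 4.03, adjusted p = 2.184e-09). Its level was high in double loss and in wild type (12.08, 12.42 and 12.40) and lower in both single-loss lines (Lin28b loss 10.46, 10.64 and 10.68). The surface antigen Ly6e had the same order, with differences of 2.17 and -1.74. Olig1, Abhd16a, Wdr46, Nod1 and Ubd had the opposite order: each was high in Lin28a loss and in Lin28b loss and low or undetected in double loss and in wild type. Abhd16a, for example, had 5.02, 5.02 and 5.52 in double loss and 9.71, 9.43 and 9.62 in Lin28a loss, next to 9.68, 9.63 and 9.61 in Lin28b loss and 5.23, 5.61 and 5.23 in wild type. Otx2 rose in both comparisons, by 4.89 and 2.67, and more in the first (interaction 2.23 ± 0.18, adjusted p = 1.544e-06).

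Chromosome 8 stood apart from the other chromosomes. Of its 478 tested genes 45 rose (9.4%) and 261 fell (54.6%). Their median difference was -0.37, and that of the genes elsewhere was 0.01. Each double-loss array showed it, with medians of -0.39, -0.35 and -0.38 against the Lin28a-loss mean. The medians of the other 18 autosomes lay between -0.04 and 0.06. Relative to wild type the chromosome 8 median was -0.11 in double loss and 0.25 in Lin28a loss, and it was 0.24 in Lin28b loss. In 6 successive groups of about 80 genes along the chromosome the medians were -0.52, -0.37, -0.44, -0.51, -0.28 and -0.16. Snai3, Plvap, Got1l1, Insr, Smad1, Dusp4, Psmb10 and Dpep3 lie on it, as does Zfp42, which rose. Of the falls of at least 2-fold 69 of 644 were of chromosome 8 genes, and of the rises 4 of 439. Copy number was not measured, and its part in these values was not tested.

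**Figure D5:**
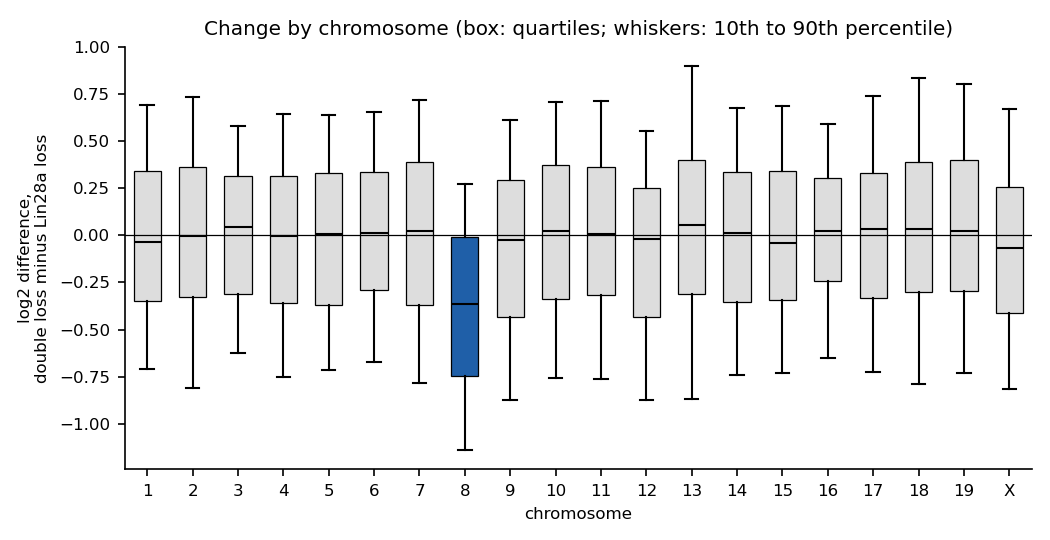
Log2 difference, double loss minus Lin28a loss, of the tested genes of each chromosome; boxes span the quartiles with the median as a line, and whiskers the 10th to the 90th percentile. Chromosome 8 has a median of -0.37, while those of the other autosomes lie between -0.04 and 0.06.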

How the data were processed

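RNA of 12 samples was hybridised to Illumina WG-6 arrays and exported with GenomeStudio (GSGX 1.9.0, per the file headers). The deposited gene table holds 1 signal per gene and array, a linear bead intensity with no background subtraction and no normalization per the file headers, and a detection p-value, which the authors exported with it. A further deposited table of 45281 probes holds intensity values that the authors normalized in a way not stated beside it. It served as an alternative only (log2 of the value plus an offset). Its probes were not matched to genes. The header of a further export names rank-invariant normalization with background subtraction. Of that export only the gene and probe names were used, to count the probes of each gene. Another 60 columns with a value per sample were left unused.

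Background was estimated per array from the detection p of single-probe genes (936 negative control bead types inferred) and removed with the normexp model of limma 3.58.1 under R 4.3.3. After an offset of 16, log2 intensities were quantile normalized between arrays. Differences were tested with lmFit and eBayes on all 12 arrays, adjusted by Benjamini-Hochberg over 9570 genes, with a threshold of 0.05, for double loss minus Lin28a loss, Lin28b loss minus wild type, and the difference of both. With 3 arrays per group the number of arrays limits the precision. The fit was also run on simulated data with known changes and a spread drawn independently for each array. Of 50 genes each it called 30 changed by 0.5 on the log2 scale, 45 by 1, 50 by 2 and 46 by -1. It called 4 unchanged genes. The common deviations of the real arrays were left out of the simulation.

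Symbols were updated through a mouse RefSeq table (GRCm38.p6): 18045 genes matched on identifier, 2073 on symbol and 2663 on a synonym, while 8073 were left as named in the file. Chromosomes were known for 8125 tested genes. The genes compared and the 35 gene lists were chosen with earlier results of these data known, and no list was given a test. Genes were named by rule: Lin28a and Lin28b, the 12 largest rises and falls of genes without overlap detected in both groups, the 8 largest bounds each way, up to 3 rises and 3 falls per list, the 6 largest interactions each way, the 6 largest changes shared by both comparisons each way, and Y-linked genes with Xist. Unnamed or predicted entries were counted only, and a few genes that the rule picks are not reported here. Other named genes, such as Atf4, Pou5f1 and members of a list that did not pass the test, were chosen after their values were seen. Plots used Python 3.11.15 with matplotlib 3.10.9.

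Alternatives were no background correction, an offset of 50, median scaling, cyclic loess, 3 other filters on dim genes, array weights, the replicate number as a block, each array left out, only the 6 arrays compared and the authors' normalized table. The arrays left out for brightness and the members on chromosome 8 left out of the lists were chosen after seeing the data. Same-numbered arrays did not deviate together in every pair (r between -0.576 and 0.685), and the main fit did not pair samples by number. Bright arrays of different numbers deviated together too (Lin28a loss 3 and double loss 1, r = 0.687). This check therefore cannot settle whether the numbers pair the samples.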

Additional observations from a re-analysis of the deposited data

Results flagged for a closer look

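The change in double loss against Lin28a loss differed from that in Lin28b loss against wild type at 3641 genes by the interaction test (limma, all 12 arrays). Among named genes the interaction was positive, on the log2 scale, for Cyp2c70 (4.86), H2-Q6 (4.54), Zfp42 (4.03), Wdr82 (3.95), Ly6e (3.91), Osr2 (3.73) and Otx2 (2.23). Wdr82, a subunit of a histone methyltransferase complex, stood out for Lin28b loss, with 5.15, 5.09 and 5.06 there and 8.52, 8.49 and 8.62 in wild type, next to 9.70, 9.39 and 9.40 in double loss and 8.80, 8.88 and 9.28 in Lin28a loss.

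The interaction was negative for Olig1 (-9.17), Abhd16a (-8.68), Wdr46 (-8.35), Nod1 (-6.98), Ubd (-6.11) and H2-Bl (-5.83). H2-Bl was detected in both single-loss lines, at 9.14, 9.08 and 8.87 in Lin28a loss and 6.60, 6.29 and 6.60 in Lin28b loss. Where a group is at background the interaction depends on the offset and is no exact size.

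Lin28a had an interaction of 0.76 (adjusted p = 0.002484). It differed by -0.94 in Lin28b loss against wild type and was dim in both groups of the main comparison. Both of those groups carry the loss of Lin28a. The interaction of Lin28a is no separate result, and its cause was not tested. Smaller interactions past the threshold were those of Ly6a (-1.08), Eif2s3y (-0.96), Samd9l (0.64), Tiam2 (0.6), Spic (0.59) and Arl5a (0.54), genes that moved the same way in both comparisons. Eif2s3y, Samd9l and Tiam2 were detected on no array of Lin28a loss or wild type, and Arl5a on none of double loss or Lin28b loss. The sizes of their 2 differences thus cannot be compared. The interactions of Samd9l, Tiam2 and Spic lost the call under median scaling and in some fits without 1 array. That of Arl5a lost it under median scaling and cyclic loess.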

How the results depend on the processing

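In double loss against Lin28a loss 5240 genes passed the threshold. Median scaling left 3170 (797 up, 2373 down) and the authors' normalized probe table, with 45281 probes tested, gave 11826. Leaving out 1 array at a time gave 4671 to 5514, and leaving out the 3 brightest arrays, chosen after seeing the data, gave 6197. In Lin28b loss against wild type 3408 passed, with 1712 under median scaling, 5504 with array weights and 2645 to 3746 without single arrays. The interaction gave 3641, with 1404 under median scaling, 5480 with array weights, 5887 in the authors' table and 3038 to 4077 without single arrays. With the replicate block the counts were 5334, 3557 and 3755, and the block moved no count by over 1.5 times. The other alternatives run kept each count within 1.5 times, and the cause of the differences was not tested. A fit with chip as a block could not be made for these contrasts and was not run.

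No named gene changed sign as a called value. Of 196 named genes 150 kept their side of the threshold in the main comparison under every alternative run in which they were tested, 28 lost the call only under median scaling, and 18 lost it in a fit without 1 array. The chromosome 8 median was -0.53 under median scaling, -0.31 without background correction or with the offset of 50, -0.06 with no filter on dim genes, where 28852 genes enter, and between -0.33 and -0.39 otherwise. Genes near background are limited by the offset, and their folds are bounds.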

Other observations

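Of 55 cytosolic ribosomal protein genes 3 rose and 4 fell in double loss, with a median of -0.01, where 54.8% of all genes were called. Under median scaling 2 rose and 2 fell. The largest differences were of Rps3a1 (-1.49 ± 0.13) and Rps15a (1.25 ± 0.10), families with many processed copies, so reads of the probes are uncertain. Of 65 mitochondrial ribosomal protein genes 15 rose and 13 fell, a split that turned without double loss 2 (10 and 12), without double loss 3 (10 and 13) and under median scaling (5 and 6). Among them were Mrpl51 (0.93 ± 0.10) and Mrpl55 (-1.08 ± 0.16). Of 31 complex I genes 7 fell and none rose, with a median of -0.12. Of these 7, Ndufa13 and Ndufb7 lie on chromosome 8, 5 of 29 fell without that chromosome, and Ndufb7 did not pass without Lin28a loss 1, Lin28a loss 2 or double loss 1. Without single arrays 3 or 4 of the 31 fell in 4 cases (Lin28a loss 1 or 2, double loss 1 or 2). Of 32 genes of complexes II to V 2 rose and 1 fell, and 1 and 3 did without Lin28a loss 3. Of 29 proteasome genes 1 rose and 5 fell, led by the immunoproteasome subunits Psmb9 and Psmb10 (-1.48 ± 0.17, on chromosome 8). Among 22 genes of mitochondrial protein import 4 rose and 6 fell, with 6 and 4 without double loss 1, and the receptor Tomm22 rose by 1.44 ± 0.09, with no overlap between the groups.

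Of 15 glycolysis genes 6 rose and 1 fell, and under median scaling 1 rose and 1 fell. The enolase gene Eno1 rose by 0.76 ± 0.10. Of 16 genes of cholesterol synthesis 3 rose and 4 fell, with 1 and 4 under median scaling, among them the isomerase Ebp (-1.46 ± 0.09). Of 35 DNA replication genes 12 rose and 9 fell, and under median scaling 1 rose and 1 fell. Of 4 tested mesoderm genes 1 rose and 2 fell, and of 3 neuroectoderm genes only Olig1 fell. Of 2 genes of the two-cell state Eif1a rose. That call was lost under median scaling, under cyclic loess, with no filter on dim genes and without any of 4 single arrays. The host gene of the microRNA 17 to 92 cluster, Mir17hg, chosen after its values were seen, had 10.70, 10.66 and 10.70 in double loss and 8.40, 8.90 and 9.37 in Lin28a loss (1.80 ± 0.19, adjusted p = 6.357e-06). In Lin28b loss and wild type it stood between 9.62 and 10.04.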
